A study of Homo sapiens with 6 samples.

Results

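The cytosolic ribosomal protein genes are the protein-coding genes whose products, together with the ribosomal RNAs, build the small (40S) and large (60S) subunits of the ribosome in the cytoplasm. They were taken from the gene table by symbol, as protein-coding genes named RPL or RPS followed by a number (with an optional A, X or L), plus RPLP0, RPLP1, RPLP2 and RPSA, leaving out the RPS6 kinases. This gave 84 of the 58735 genes in the table, 32 of the small and 52 of the large subunit, on 21 chromosomes. Of these, 82 had enough counts to be tested. RPL10L had no count in any library and RPL3L had 0 to 5 counts per library, and these are the germline paralog of RPL10 and the muscle paralog of RPL3.

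RNA had been sequenced from MDA-MB-231 cells, a human triple-negative breast cancer cell line, and from Adriamycin-resistant (ADRr) cells derived from them, with 3 libraries in each group. The parent libraries carry the genotype label WT, and the ADRr libraries the label ADR resistant. Adriamycin is doxorubicin, an anthracycline that intercalates into DNA and poisons topoisomerase II. Both groups are described with the same DMEM medium with serum and antibiotics. In the study's methods the resistant cells were raised by rising drug doses and cloned from single cells by limiting dilution, so differences between the groups can include those of 1 clone, and the sources used here do not give a dose at harvest. Nothing in the labels says that the libraries of a group came from separate cultures, so p-values measure only the spread between these libraries. The series text names 3 time points that no label assigns.

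The libraries held 15983985 to 18272314 counts. VIM, CD44, KRT18 and KRT8, which mark this cell line, had mean FPKM (counts scaled to gene length and library depth) from 22 to 146 over both groups, so all 4 were detected. Their levels differed between the groups: KRT8, KRT18 and VIM were lower in ADRr cells (log2 fold changes of -2.00, -0.65 and -0.56) and CD44 was higher (0.80), each past the test used for the members. The estrogen and progesterone receptor genes ESR1 and PGR had 0 or 1 count per library. CDH1 and EPCAM were above 0, with mean FPKM of 2.34 and 4.88 in parent cells and 1.12 and 10.5 in ADRr cells. By the same test CDH1 was called lower (log2 fold change -1.07) and EPCAM higher (1.10). Of 7 markers of blood, lymphoid and endothelial cells, none exceeded 13 counts in a library.

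A ribosome holds 1 copy of nearly every ribosomal protein, and cells keep the supply of these proteins balanced. Their messenger RNAs are abundant, and most begin with a C followed by a run of pyrimidines, the 5′ terminal oligopyrimidine (TOP) motif. Through this motif the kinase complex mTORC1 and the RNA-binding protein LARP1 set how strongly the messages are translated. Several ribosomal proteins also have a role outside the ribosome, and a few have a paralog (a second gene for a similar protein) that can take their place in it.

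The annotated start of 67 members was found in RefSeq promoter sequences (GRCh38.p14), and 47 of these (70.1%) had a C at the annotated first base followed directly by at least 4 C or T on the sense strand. Among all 14896 protein-coding genes of the table with such a sequence, 947 (6.36%) had one. Only the annotated first base was searched, on the sense strand, and a gene with several annotated starts counted once if any start matched. The share was 6 of 10 matched members called higher in ADRr cells, 18 of 24 called lower and 23 of 32 that were not called. The starts shown run from 10 bases before the annotated start to 20 bases from it, with the pyrimidine run in capitals. They are those of 8 genes of the 5 paralog pairs compared by ratio and of 4 members with large differences between the groups, so that the motif can be set beside the values.
RPL22: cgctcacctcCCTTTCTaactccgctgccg
RPL22L1: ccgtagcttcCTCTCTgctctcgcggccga
RPL26: gcgtgtagttCTCTTCCCTTTTgcggccat
RPL26L1: tccaggggtcggcgaacgaaacgcggagct
RPS27: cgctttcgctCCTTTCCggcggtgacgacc
RPS27L: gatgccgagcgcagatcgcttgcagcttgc
RPL7L1: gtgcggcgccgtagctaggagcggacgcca
RPL39: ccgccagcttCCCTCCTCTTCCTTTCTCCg
RPS6: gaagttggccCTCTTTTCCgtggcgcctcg
RPS14: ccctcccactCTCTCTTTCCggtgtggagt
RPL12: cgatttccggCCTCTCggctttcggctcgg
RPL4: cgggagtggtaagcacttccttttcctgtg
RPL22L1, the member with the largest increase, has the motif at its start (chr3:170870176-170870205, minus strand), as does its partner RPL22 (chr1:6199576-6199605, minus strand). RPL26L1, RPS27L and RPL7L1 do not have it at the starts listed, and 1 of the 5 matched paralogs had a match, against 46 of the 62 other members. RPL4, which fell, has no match at its annotated start (chr15:66504836-66504865, minus strand), and a pyrimidine run lies a few bases downstream. The first of the 2 RPL26L1 starts in the table is shown.

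Compared with parent cells, ADRr cells had 27 of the 82 tested members lower and 11 higher, with calls made where the adjusted p did not exceed 0.05 and the fold reached 1.2 (edgeR's quasi-likelihood test with Benjamini-Hochberg adjustment over all 15242 tested genes). Of all tested genes, 29.6% were called lower and 29.2% higher. The members' share called lower (32.9%) was near that background and their share called higher (13.4%) was below it. Among the 4285 tested genes whose normalized counts (counts scaled to a common library size) averaged 1000 or more, which included 73 members, 33.9% were called lower and 29.6% higher, while 26 and 8 of those members were called. The median log2 fold change of the members was -0.03, with quartiles of -0.40 and 0.13, and over all tested genes the median was -0.0061 with quartiles of -0.46 and 0.45. The median size of the change, without sign, was 0.22 on the log2 scale for the members and 0.46 for all tested genes. Libraries of the groups did not overlap for 52 members (63.4%), 20 higher and 32 lower in ADRr cells, against 69.2% of all tested genes. The 44 tested members that were not called differed by at most 0.26 on the log2 scale, and 18 of them had an adjusted p of at most 0.05 with a fold under 1.2.

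In the small subunit 1 of 32 tested members was called higher (3.1%) and 12 lower (37.5%), with a median of -0.07. In the large subunit 10 of 50 were called higher (20%) and 15 lower (30%), with a median of 0.0060. Over all tested genes these shares were 29.2 and 29.6%. Members took 3.65, 3.56 and 3.90% of all counts in parent replicates 1 to 3 and 3.47, 3.58 and 3.41% in ADRr replicates 1 to 3. The mean was 3.70% ± 0.173 in parent and 3.48% ± 0.0836 in ADRr cells (SD, n = 3 each), and the groups overlapped, since parent replicate 2 lay below ADRr replicate 2. Parent replicate 3 stood above the other libraries: 63 of the 82 members had their highest parent value there, and its median member lay 0.12 above the gene's mean over libraries on the log2 scale. Without it the median log2 fold change of the members was 0.0062, with 26 members lower and 13 higher. Small-subunit genes made up 35.5% ± 0.325 of the member counts in parent cells and 34.9% ± 0.244 in ADRr cells, and these ranges overlapped too.

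The 5 largest increases were in RPL22L1, RPL17, RPS27A, RPL12 and RPL10A. RPL22L1 (chr3:170864875-170870483, minus strand, GRCh38) encodes a paralog of RPL22 and had 557, 578 and 533 normalized counts in the parent libraries and 2155, 2059.6 and 2225 in the ADRr libraries. Every ADRr library was above every parent library, and the gene was 3.87-fold higher in ADRr cells (log2 fold change 1.95 ± 0.065, SE, adjusted p = 3.67e-17). RPL12, which sits at the base of the ribosome's P stalk, had 9936, 9911 and 10852 normalized counts in parent and 15206, 15847 and 16229 in ADRr libraries, 1.54-fold higher (log2 fold change 0.62 ± 0.048, adjusted p = 1.21e-10). RPL10A, a protein of the L1 stalk on the large subunit, had 8078, 7745 and 8323 normalized counts in parent libraries. Its ADRr values of 11499, 12348 and 11845 were all higher, by 1.48-fold (log2 fold change 0.56 ± 0.048, adjusted p = 5.22e-10). RPS27A, whose product is ubiquitin fused to a small-subunit protein, had 4589, 4891 and 4791 normalized counts in parent and 7849, 8374 and 6491 in ADRr libraries, a log2 fold change of 0.67 ± 0.067 (adjusted p = 8.46e-09). It was the 1 small-subunit member called higher, and ADRr replicate 3 lay below the other ADRr libraries but above all parent libraries. RPL17 had few counts, 105, 105 and 146 in parent and 193, 190.5 and 196 in ADRr libraries after normalization, with a log2 fold change of 0.70 ± 0.14 (adjusted p = 0.00017). Its value is uncertain, since 84.6% of its 150-base windows occur in the transcripts of another gene.

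The 5 largest decreases were in RPS6, RPL4, RPL15, RPS27L and RPS14. RPS6 (chr9:19375715-19380254, minus strand), the small-subunit protein that S6 kinases phosphorylate downstream of mTORC1, had 7078, 6714 and 7408 normalized counts in the parent libraries and 2864, 2844 and 2943 in the ADRr libraries. It was 2.45-fold lower in ADRr cells (log2 fold change -1.29 ± 0.051, adjusted p = 8.42e-16), with no overlap between the groups. RPL4 (chr15:66498015-66524532, minus strand), which lines the exit tunnel for the growing chain, had 16176, 15992 and 16532 normalized counts in parent and 6749, 6420.5 and 6999.8 in ADRr libraries, 2.41-fold lower (log2 fold change -1.27 ± 0.047, adjusted p = 2.46e-16). RPL15, a 60S protein needed for processing of ribosomal RNA precursors, had 15065, 14703 and 15666 normalized counts in parent libraries. In ADRr libraries it had 7049.6, 6831 and 6251, 2.26-fold lower (log2 fold change -1.17 ± 0.051, adjusted p = 4.03e-15). RPL15 shares 31.1% of its windows with 1 other gene, its processed copy RPL15P3. That copy was also lower, with mean normalized counts of 696 ± 68.8 in parent and 265 ± 53.5 in ADRr cells (SD, n = 3). Reads of RPL15 and RPL15P3 cannot be told apart where they are alike, so the fall of the copy is not a separate observation. RPS14, the small-subunit gene whose loss is linked to the anaemia of the 5q deletion syndrome, had 6975, 6757 and 7511 normalized counts in parent and 4188, 4227 and 3789 in ADRr libraries (log2 fold change -0.80 ± 0.055, adjusted p = 1.41e-11). In all 4 of these members each ADRr library lay below each parent library. RPS27L is described with the paralogs.

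**Figure D1:**
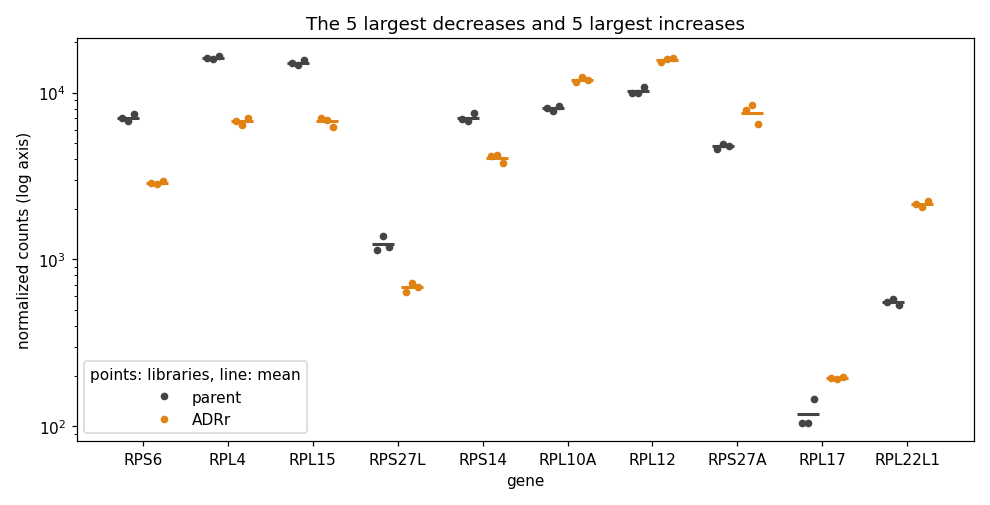
Normalized counts (log axis) of the 5 members with the largest decrease, left, and the 5 with the largest increase, right, with a point for each library and a line at the group mean. The groups do not overlap for any of these 10 genes, and RPL17 lies lowest, near 119 in parent and 193 in ADRr cells.

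The remaining members called higher were RPL26, RPL10, RPL26L1, RPL27, RPL37A and RPL5, with log2 fold changes from 0.27 to 0.42. The remaining members called lower had log2 fold changes from -0.78 in RPSA to -0.26 in RPS12. RPS12 and RPS29 (-0.28) lay just past the threshold, and of the 18 other fits RPS12 was not called in 9 and RPS29 not in 7, including the fit without ADRr replicate 3, where they stood at -0.16 and -0.21. RPL27 and RPL37A were not called without parent replicate 2, at 0.25 and 0.23. RPSA, a small-subunit protein also known as the laminin receptor, had 14776, 14471 and 14999 normalized counts in parent and 8473, 8862 and 8475 in ADRr libraries (log2 fold change -0.78 ± 0.045, adjusted p = 6.93e-13). Measured per gene length, RPS12 had the highest mean FPKM of all members in parent cells (601) and RPS2 in ADRr cells (559, against 472 in parent cells). That length joins all annotated exons of a gene, and the ranking depends on it. It was 767 bases for RPS12 and 4001 for RPLP0, whose principal transcripts have 631 and 1218 bases. RPS2, the next member below the threshold for an increase, had a log2 fold change of 0.24 and an adjusted p of 0.000864. The most abundant member in normalized counts was RPLP0, described with the P stalk.

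Paralogs were set beside their partners as ratios of FPKM, which take gene length into account. That length joins all annotated exons (9127 bases for RPS27L and 1035 for RPS27), so the level of a ratio depends on the annotation. The lengths are the same in both groups, so the change of a ratio between them does not depend on it. The RPL22 pair moved in opposite directions. RPL22 (chr1:6185020-6209389, minus strand), whose protein is known to hold back production of its paralog by binding its messenger RNA, had 1475, 1625 and 1498 normalized counts in parent and 952, 951 and 894 in ADRr libraries. The gene was 1.64-fold lower in ADRr cells (log2 fold change -0.72 ± 0.064, adjusted p = 1.36e-09). The ratio of RPL22L1 to RPL22 was 0.760, 0.716 and 0.716 in the parent libraries and 4.56, 4.36 and 5.01 in the ADRr libraries, so the paralog was the lower of the pair in every parent library and the higher in every ADRr library. The ratio was 6.35-fold higher in ADRr cells. With 3 libraries against 3 an exact permutation test (two-sided) cannot give less than p = 0.1, which is the value here, or 0.167 adjusted by Benjamini-Hochberg over the 5 pairs compared.

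RPS27L (chr15:63125872-63158021, minus strand), a p53 target, had 1135, 1372 and 1188 normalized counts in parent libraries and 640.4, 722 and 686 in ADRr libraries. It was 1.8-fold lower (log2 fold change -0.85 ± 0.077, adjusted p = 1.8e-09), while its partner RPS27 was lower in every ADRr library by less than the called fold (log2 fold change -0.26 ± 0.049, adjusted p = 6.99e-05). Their FPKM ratio was 0.0247 ± 0.0024 in parent and 0.0164 ± 0.0011 in ADRr cells (SD, n = 3 each), with an exact permutation p of 0.1. RPL39L, a paralog best known from testis, had a log2 fold change of 0.12 ± 0.091 (adjusted p = 0.266), and its partner RPL39 fell, with a log2 fold change of -0.46 ± 0.065 (adjusted p = 1.87e-06). The RPL39L to RPL39 ratio was 0.165 ± 0.013 in parent and 0.247 ± 0.030 in ADRr cells, again without overlap and with an exact permutation p of 0.1. RPL26L1 and RPL26 both rose, by 0.33 and 0.42 on the log2 scale, and their ratio was 4.36 ± 0.652 in parent and 4.10 ± 0.457 in ADRr cells (exact permutation p = 0.8). That ratio is uncertain, because 53.3% of the windows of RPL26 are shared and its counts were low, with a mean of 295 ± 25.5 in parent cells. RPL7L1 had a log2 fold change of -0.12 and RPL7 of -0.01, and their ratio overlapped between the groups (exact permutation p = 0.2). This ratio is uncertain too, since 56.5% of the windows of RPL7 are shared. Of the partners of the 2 untested paralogs, RPL10 rose (log2 fold change 0.34 ± 0.049, adjusted p = 2e-06) and RPL3 was not called (log2 fold change 0.06 ± 0.044, adjusted p = 0.209).

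The P stalk is the flexible arm of the large subunit that recruits elongation factors, made of RPLP0 and pairs of RPLP1 and RPLP2, with RPL12 at its base. Its 4 genes did not move together: RPL12 rose, RPLP1 fell, and the other two were not called. RPLP1 had 12299.5, 14552 and 14522 normalized counts in parent and 9692, 10212 and 7980.5 in ADRr libraries (log2 fold change -0.57 ± 0.072, adjusted p = 3.27e-07). RPLP0 had 30121, 29872 and 31645 in parent and 28779.7, 28139 and 25839 in ADRr libraries, with a log2 fold change of -0.15 ± 0.046 (adjusted p = 0.00815), and the groups did not overlap. RPLP2 had a log2 fold change of -0.13 ± 0.055 (adjusted p = 0.04), and its groups overlapped.

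RPL5 and RPL11 bind 5S ribosomal RNA and, when not built into ribosomes, can inhibit the p53 regulator MDM2. RPL5 had 8775, 9272 and 9333 normalized counts in parent and 10899.8, 11019 and 11110.1 in ADRr libraries and was called higher just above the threshold, 1.21-fold (log2 fold change 0.27 ± 0.046, adjusted p = 1.76e-05). Without parent replicate 1 its log2 fold change was 0.24 and it was no longer called. RPL11 had 6412, 6037 and 6519.9 in parent and 6173, 6058 and 6732 in ADRr libraries, which overlapped (adjusted p = 0.995).

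Variants in ribosomal protein genes cause Diamond-Blackfan anaemia, and 9 of the genes most often affected were listed. Apart from RPL5 none was called, and the median of the 9 was 0.13 on the log2 scale, with the highest value, 0.27, in RPL5. RPS19, the gene most often affected, had 11961, 10030.00 and 12750.4 normalized counts in parent and 10721, 11129.9 and 10498 in ADRr libraries, which overlapped (log2 fold change -0.10 ± 0.063, adjusted p = 0.152). RPS7, RPL35A, RPS24 and RPS26 were higher in every ADRr library than in any parent library, by 0.13 to 0.18 on the log2 scale, under the called fold. Such a lack of overlap, in either direction, was seen in 69.2% of all tested genes. RPS26 shares 44.5% of its windows with other genes. RPS10 had a mean of 53.6 ± 11.9 normalized counts in parent cells (SD, n = 3), the lowest of the tested members, and a log2 fold change of 0.02 ± 0.24. Both RPS10 values are uncertain, since 88.15% of its windows are shared with other genes.

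Ribosomal proteins whose symbols lie outside the naming rule were looked at in the same fit. Of the 3 tested, 2 were called lower, 1 of which is not reported here. RPL36AL, a paralog of RPL36A, fell (log2 fold change -0.52 ± 0.058, adjusted p = 4.55e-08), and FAU, the precursor of another small-subunit protein, was not called (log2 fold change -0.04 ± 0.057, adjusted p = 0.602).

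Ribosomal protein genes have many processed copies in the genome, and reads that fit several places are often left out of gene counts. The table named 1144 pseudogenes of 77 members, of which 809 had no count in any library and 71 were tested, with 15 higher, 17 lower and a median log2 fold change of 0.0056. Together they held 17818 to 20652 counts per library. At 27 members, 10% or more of the 150-base windows of the transcript occur elsewhere among annotated transcripts, and at 43 none do. Among the 55 tested members under 10%, 8 were higher and 19 lower, with a median of -0.03. Beside these counts and those of the pseudogenes, 29.2% of all tested genes were called higher and 29.6% lower. Of the 9 tested members with a mean under 1000 normalized counts, 5 had 50% or more of their windows shared (RPS10, RPL17, RPL36A and RPL26 among them) and 3 are paralogs. The pseudogene named RPL9P9 had more counts than its parent gene in every library, with 3704, 3626 and 3697 normalized counts in parent and 4715, 4506 and 4703 in ADRr libraries (log2 fold change 0.34 ± 0.049, adjusted p = 2.39e-06), while RPL9 had a log2 fold change of 0.14 ± 0.072 (adjusted p = 0.104). Reads of that pair cannot be told apart where they are alike. The combined genes RPL17-C18orf32, RPL36A-HNRNPH2 and RPS10-NUDT3, annotated across a member and its neighbour, had 0 to 2 counts per library. Genes on the same strand, these among them, overlapped 32.7, 8.4 and 39.4% of the exon bases of RPL17, RPL36A and RPS10. Whether reads were lost from these members by that overlap was not tested.

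The members are scattered over the genome, so each was set beside the 50 nearest tested genes on its chromosome that are not members. The median log2 fold change of these neighbours ranged from -0.62 to 0.68, and across the 82 members it correlated with the member's own value (Pearson's r = 0.47, Spearman's rho = 0.49), as a description, since neighbourhoods overlap and all values come from the same libraries. It was below 0 for 24 of the 27 members called lower and above 0 for 7 of the 11 called higher. Its median was -0.23 over the members called lower, 0.09 over those called higher and -0.03 over those not called. The same correlation is not given here for genes outside the members. The 5 members on chromosome 3 that start before position 90000000, RPL32 (chr3:12834485-12841588, minus strand), RPL15 (chr3:23916545-23924374, plus strand), RPSA (chr3:39406689-39412542, plus strand), RPL14 (chr3:40457292-40468587, plus strand) and RPL29 (chr3:51993522-51995942, minus strand), were all called lower. In the same stretch 58.5% of the 398 other tested genes were lower, with a median of -0.55. Beyond that position none of the 4 tested members was called lower, and 26.4% of 424 other tested genes were, with a median of 0.08. RPL29 (-0.74) and RPL32 (-0.40) had neighbours with medians of -0.62 and -0.61, and RPL15 (-1.17) had neighbours with a median of -0.11.

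RPS27A and RPL17, which were higher, lay among genes with medians of 0.66 and 0.60. RPS7, among neighbours with a median of 0.68, had a log2 fold change of 0.13. RPL22L1, RPL10A and RPL22 went against their neighbours, whose medians were -0.12, -0.17 and 0.16. RPS6 and RPL4 had neighbours with medians of -0.37 and -0.55 and fell further than these, and RPS14 and RPS9 fell among neighbours with medians of -0.03 and -0.02. With the neighbours' median subtracted, a comparison added after the data were seen, 18 of the 27 members called lower and 6 of the 11 called higher still passed a fold of 1.2. The number of gene copies in either group was not measured here, and its part in these values was not tested.

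Mitochondrial ribosomal protein genes, which build the separate ribosome of mitochondria, served as the most similar group. Of 78, all tested, 15 (19.2%) were higher and 25 (32.1%) lower, with a median log2 fold change of -0.06. MRPL58 had the largest increase (log2 fold change 0.70 ± 0.083, adjusted p = 1.28e-07) and MRPL16 the largest decrease (-0.87 ± 0.079, adjusted p = 1.9e-09). Other translation genes whose messages carry the TOP motif had 1 higher and 6 lower of 14 tested, with a median of -0.25. EEF1A1, the elongation factor that brings transfer RNAs to the ribosome, rose (log2 fold change 0.32 ± 0.038, adjusted p = 1.23e-07), and HNRNPA1, an RNA-binding protein, fell (log2 fold change -0.56 ± 0.043, adjusted p = 9.87e-11). EEF1G had no count in any library, which need not mean that the gene was not expressed, and the cause was not tested.

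Among factors that assemble ribosomes, of 69 tested, 29 (42.0%) were higher and 13 (18.8%) lower, with a median of 0.14. WDR43, a factor of the small-subunit processome, had 1188, 1239 and 1341 normalized counts in parent and 3548, 3435 and 3689 in ADRr libraries (log2 fold change 1.5 ± 0.059, adjusted p = 6.95e-16). IMP3, another small-subunit processome protein, had 392, 403 and 401 in parent and 133, 119 and 116 in ADRr libraries (log2 fold change -1.70 ± 0.11, adjusted p = 3.93e-12). The genes that host small nucleolar RNAs in their introns, many of which also begin with a TOP motif, had 9 higher and 2 lower of 12 tested, with a median of 0.66. ZFAS1 had 427, 408 and 465 normalized counts in parent and 1656, 1581 and 1507 in ADRr libraries, a log2 fold change of 1.87 ± 0.073 (adjusted p = 6.08e-16). DANCR went the other way, with a log2 fold change of -1.37 ± 0.088 (adjusted p = 4.83e-12). The spliced RNA of such hosts is known to be removed by nonsense-mediated decay in many cases, which was not measured here.

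Among RNA polymerase I genes, which transcribe ribosomal RNA, 4 were higher and 4 lower of 15 tested, with a median of -0.02. TAF1B, a subunit of the selectivity factor, had a log2 fold change of 1.18 ± 0.081 (adjusted p = 1.67e-11), and UBTF, which opens the ribosomal DNA for transcription, of -0.54 ± 0.056 (adjusted p = 1.71e-08). Chaperones and importers of ribosomal proteins had 3 higher and 2 lower of 12, with PDCD2L, linked to the small-subunit protein RPS2, at 0.62 ± 0.15 (adjusted p = 0.00107). TSR2, the chaperone of RPS26, was at -0.58 ± 0.067 (adjusted p = 8.71e-08).

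Genes of mTORC1 and of TOP message control had 5 higher and 4 lower of 15 tested, with a median of 0.08. MYC, a transcription factor that drives ribosome production, had 3767, 3646 and 4040.1 normalized counts in parent and 7250.4, 7487 and 7443 in ADRr libraries, 1.94-fold higher (log2 fold change 0.95 ± 0.051, adjusted p = 1.56e-13). EIF4EBP1 and EIF4EBP2, which restrain cap-dependent translation when mTORC1 is off, moved apart, with log2 fold changes of 1.08 ± 0.057 (adjusted p = 1.21e-13) and -0.62 ± 0.055 (adjusted p = 1.24e-09). LARP1 fell (log2 fold change -0.29 ± 0.045, adjusted p = 4.8e-06), and RPS6KB1, the kinase of RPS6, rose (log2 fold change 0.28 ± 0.072, adjusted p = 0.00176).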

How the data were processed

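RNA from 3 parent and 3 ADRr libraries of MDA-MB-231 cells was analysed. The authors deposited whole-number counts per gene and FPKM values computed from them. The submitters' processing notes list fastp, HISAT2 2.0.5, featureCounts 1.5.0-p3 and DESeq2 1.20.0, with GRCh38. Whether counting used strand is not given in the sources used here, and the library kits in the labels and the paper differ. Gene identifiers match GENCODE 29.

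Counts were normalized by TMM and filtered with filterByExpr in edgeR 4.0.16 (R 4.3.3), which left 15242 genes. All of these were compared by its quasi-likelihood test, adjusted after Benjamini-Hochberg. Calls needed an adjusted p no higher than 0.05 and a fold no lower than 1.2. The fits were tested on simulated data. Depth was 15983985 to 18272314 counts, and where a gene has no count, up to 3 counts (0.164 to 0.188 CPM) are allowed by counting error alone. The replicate numbers did not pair libraries (correlations of deviations of 0.0074, -0.02 and -0.05). Alternatives were DESeq2 1.42.0, limma-trend (limma 3.58.1) on FPKM, other scalings and filters, counts summed with pseudogenes, a replicate block and each library left out.

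Named genes were the 5 members with the largest increase and decrease, RPS6, RPSA, untested members, all paralogs and partners, P stalk, 5S and Diamond-Blackfan genes, ribosomal proteins outside the rule, MYC, LARP1, RPS6KB1 and, in each other list, the strongest called increase and decrease. RPL9P9, RPL15P3, EEF1G and the members RPL9, RPL14, RPL21, RPL27, RPL29, RPL32, RPL36A, RPL37A, RPS2, RPS9, RPS12 and RPS29 were named after their values were seen. Members and lists were chosen with earlier results of these data known. The lists were written by hand. Some genes that the naming rule selects are not reported here.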

Additional observations from a re-analysis of the deposited data

How the results depend on the processing

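Under the other fits, scalings and filters, with DESeq2, with FPKM and with pseudogene counts added, 11 to 12 members were higher and 25 to 27 lower, and no called member changed sign. With the adjusted p alone 22 members were higher and 34 lower. A log2 fold change of at least 1.2 left 1 higher and 2 lower, and edgeR's glmTreat gave 7 higher and 24 lower. After subtraction of the neighbours' median, added after the data were seen, 6 and 18 remained. The shares of all tested genes called under these other thresholds are not given here. The counts therefore show how the members' calls move and not how they stand to the background. Leaving out each library gave 9 to 13 higher and 26 to 28 lower, medians from -0.08 to 0.0062, and a difference in the members' share of counts from -0.29 to -0.12 percentage points (all libraries: -0.22). With a replicate block, 11 were higher and 27 lower, and not every library correlated best with that of its own number. Of the 594 refits of 33 named members, 592 gave the same call. The others came from leaving out parent replicate 1, after which RPL5 was no longer called (log2 fold change 0.24) and RPS27 was called lower (-0.29). These 33 leave out the members named after their values were seen. Of those, RPS12, RPS29, RPL27 and RPL37A lost their calls in 9, 7, 1 and 1 of 18 fits.

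Restricting the fit to protein-coding genes leaves out the snoRNA hosts, which then number 0 higher and 0 lower. With FPKM and no filter 0 translation genes with TOP motifs were higher. RNA polymerase I genes called lower numbered 2 with library size alone, with protein-coding genes only, with a minimum of 10 counts per library, and in each of the 3 FPKM fits, and 2 to 4 when each library was left out (2 without parent replicate 3 or ADRr replicate 1). Chaperones and importers called lower numbered 1 with library size alone or FPKM plus 1 (with or without the filter), and 1 to 3 when each library was left out (1 without ADRr replicate 1). The cause was not tested.

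Shared sequence with pseudogenes or other annotated genes limits RPS10, RPL17, RPL36A, RPL21, RPL9, RPL7 and RPL26. For RPS10, RPL17 and RPL36A the combined genes are among the genes that share it. RNA levels say nothing of protein or ribosome number.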
